A study of Mus musculus with 4 samples.

Results

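The 4 Janus kinases (JAKs) and 6 of their feedback inhibitors, CIS and 5 SOCS proteins, were followed at the level of mRNA in mouse Th17 cells, the interleukin-17-producing subset of CD4 T cells. The 10 genes, Jak1, Jak2, Jak3, Tyk2, Cish, Socs1, Socs2, Socs3, Socs5 and Socs7, were taken by name, and each matched 1 identifier among the 50600 genes of the count files. All libraries belonged to 1 group, primary Th17 cells of strain C57BL/6NJ, with 4 biological replicates and no second condition, genotype or dose. The labels name a CD4 T-cell differentiation protocol, give the age as unknown, and do not state the cytokines or antibodies added or the time of harvest. The headers of the count files carry a tag in hours that the labels do not explain, and it was not used as a time point. They call the assay total RNA-seq but link a library protocol named for polyA+ RNA. Differences below are therefore between genes within a library or between the 4 replicates.

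The libraries held 24696730 to 37025016 fragments assigned to genes, with replicate 2 the shallowest. All 11 Th17 markers reached 1 TPM in each of the 4 libraries, among them the chemokine receptor gene Ccr6 at 14.3 ± 1.97 TPM (SD, n = 4, as for every ± below). TPM is the fragment count over the gene's counted exon length, scaled to the same sum in each library. Summed markers of CD8 and NK cells lay between 7.43 and 10.3 TPM, of B cells between 0.280 and 0.893, and of myeloid cells between 4.12 and 6.31, with Ncr1, Ms4a1 and Lyz2 at no fragment. Most of the CD8 and NK sum came from Cd8b1 at 7.32 ± 1.16 TPM, and most of the myeloid sum from Cd68 at 5.24 ± 1.02 TPM. Both genes were above 1 TPM in each library. Replicates 1 and 2 had Xist at 186 and 161 TPM and replicates 3 and 4 at 0.687 and 0.721, with Ddx3y in the opposite pattern, although the labels give all 4 the same donor identifier. Xist is the X-inactivation transcript of females and Ddx3y lies on the Y chromosome, so these levels separate the libraries by sex, which the labels do not give. The labels do not tie cultures to animals, so p-values measure only the spread between these libraries, of which this split is a part and some may be technical.

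JAKs are tyrosine kinases held on the inner tails of cytokine receptors. When a cytokine draws receptor chains together, the kinases activate each other and mark the tails with phosphotyrosine, on which STAT factors dock, become phosphorylated and move to the nucleus. Cish and several SOCS genes are among the genes that STATs switch on. CIS and SOCS proteins bind phosphotyrosine through an SH2 domain and recruit a ubiquitin ligase through the SOCS box, so that the signal limits itself. SOCS1 and SOCS3 also carry a short region that blocks the kinase directly. In Th17 cells interleukin-6 (through JAK1, JAK2 and TYK2), interleukin-23 (through JAK2 and TYK2) and interleukin-21 (through JAK1 and JAK3) act on STAT3, which promotes the lineage, while interleukin-2 acts through JAK1 and JAK3 on STAT5, which restrains it.

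The DNA around the start sites was searched for the elements that STATs and interferon regulatory factors are known to bind. RefSeq (GRCm38, the mm10 build) gave a window from 250 bases before to 50 bases after the start for 7 of the 10 genes, the kinases, Cish, Socs1 and Socs3, and Socs2, Socs5 and Socs7 were not searched. The stretches below are shown because they hold the matches found. Capitals in Cish and Socs3 mark TTCNNNGAA, the palindromic element that STAT dimers recognise, and in Socs1 they mark GAAA, any 2 bases and GAAA, the core of the element bound by interferon regulatory factors, searched on both strands, whose 2 matches overlap. Each is written 5′ to 3′ on the gene's strand.
Cish, chr9:107296654-107296683, plus strand: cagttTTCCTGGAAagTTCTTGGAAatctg
Socs3, chr11:117969452-117969616, minus strand: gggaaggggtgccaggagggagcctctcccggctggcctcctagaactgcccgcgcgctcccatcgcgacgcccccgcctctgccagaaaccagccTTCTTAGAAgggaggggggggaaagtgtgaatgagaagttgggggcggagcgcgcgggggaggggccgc
Socs1, chr16:10785537-10785786, minus strand: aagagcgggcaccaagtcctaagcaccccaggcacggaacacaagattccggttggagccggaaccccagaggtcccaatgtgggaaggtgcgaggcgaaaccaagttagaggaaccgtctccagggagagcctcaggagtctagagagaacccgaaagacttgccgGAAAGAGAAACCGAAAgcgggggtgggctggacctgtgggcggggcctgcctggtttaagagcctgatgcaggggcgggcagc

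The Cish window held 2 copies of TTCNNNGAA, at positions 1 to 9 and 12 to 20 counted from the RefSeq start at 107296659. GENCODE also starts a Cish transcript further upstream, at 107296026, and places this stretch in its first exon, within the 5′ UTR. The Socs3 window held 1 copy, at positions -154 to -146, in a stretch between annotated exons of the gene. Socs1 had none in its window and 2 overlapping copies of the interferon regulatory factor element, from position -83 to -68, upstream of its first exon. Neither motif was found in the windows of Jak1, Jak2, Jak3 or Tyk2, and TTC, any 4 bases and GAA, the wider-spaced form that STAT6 favours, was found in none of the 7. Of 32851 windows of this length in the table, 8.30% held TTCNNNGAA, 6.95% the wider-spaced form and 3.44% the interferon regulatory factor element. A match describes letters only, and binding was not measured here.

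Among the kinases, Jak2, Jak3 and Jak1 transcripts were abundant and Tyk2 transcripts far fewer. In bulk RNA, fewer cells that express a gene and less RNA per cell cannot be told apart. Jak2 (ENSMUSG00000024789.12, chromosome 19, 29251828 to 29313080 in mm10), which serves interleukin-23, interleukin-12 and interferon-gamma receptors, was at 258, 242, 255 and 242 TPM in replicates 1 to 4. Jak3 (ENSMUSG00000031805.17, chromosome 8, 71676296 to 71690575), the kinase tied to the common gamma chain, was at 187, 179, 183 and 184 TPM. Jak1 (ENSMUSG00000028530.14, chromosome 4, 101152367 to 101265282), which serves gp130, interferon and common gamma chain receptors, was at 157, 149.6, 155 and 144 TPM. With all counted exons as the length, the 3 genes kept the order Jak2, Jak3, Jak1 in every library and their ranges did not overlap. Tyk2 (ENSMUSG00000032175.11, chromosome 9, 21104068 to 21131243), the partner kinase of the interleukin-12, interleukin-23 and type I interferon receptors, was at 27.3, 25.4, 23.9 and 26.6 TPM, far below the other kinases in each library.

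Jak2 held 40.9% ± 0.378 of the summed kinase TPM, Jak3 30.1% ± 0.536, Jak1 24.8% ± 0.459 and Tyk2 4.24% ± 0.247. With the longest coding transcript as the length these shares were 33.1% ± 0.336, 32.4% ± 0.564, 29.6% ± 0.552 and 4.88% ± 0.282. The Jak2 level was 1.65 ± 0.0262 times that of Jak1 and 9.68 ± 0.669 times that of Tyk2, or 1.12 ± 0.0178 and 6.81 ± 0.4704 times with the longest coding transcript as the length. By mean TPM, Jak2 stood at percentile 94.0 of the 11847 genes with enough fragments to be tested for spread, Jak3 at 91.2, Jak1 at 89.1 and Tyk2 at 52.7. A stretch of 404 bases of Jak3's counted exons overlaps Insl3, a hormone gene on the same strand listed at 21.6 ± 1.77 TPM, and fragments there may have been assigned to neither gene, so both values are uncertain.

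Among the inhibitors, Socs1 and Cish made up most of the transcripts. Socs1 (ENSMUSG00000038037.4, chromosome 16, 10783808 to 10785536), the direct kinase inhibitor that restrains interferon and common gamma chain signals, was at 178, 204, 198 and 191 TPM, with replicate 1 the lowest. Cish (ENSMUSG00000032578.7, chromosome 9, 107296026 to 107302784), a STAT5-induced inhibitor of interleukin-2 signalling, was at 175, 164, 169 and 167 TPM, with replicate 1 the highest. Together they held 77.5% ± 0.324 of the summed TPM of the 6 inhibitors, between 77.1% and 77.7% in every library, although each one's own share moved more, from 34.6% to 38.2% for Cish and from 38.8% to 43.1% for Socs1. Replicate 1 was the library in which Cish had its highest share and Socs1 its lowest. With the longest coding transcript as the length, or the counted exons where shorter, the shares were 55.1% ± 1.58 for Cish and 28.0% ± 1.57 for Socs1, so which of them leads depended on the length.

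Socs3 (ENSMUSG00000053113.3, chromosome 11, 117966079 to 117970047), the inhibitor that acts on the gp130 receptor and limits STAT3, was at 46.0, 46.6, 47.7 and 48.2 TPM. Those 4 values lie close together, and the Socs1 level was 4.09 ± 0.229 times and the Cish level 3.58 ± 0.149 times that of Socs3. These ratios depended on the length too: with the length limited as above they were 3.61 ± 0.202 for Socs1 and 7.12 ± 0.297 for Cish, and with the longest transcript for all genes Socs1 was at 1.52 ± 0.0847 times Socs3. Socs7 (ENSMUSG00000038485.5, chromosome 11, 97362551 to 97398542), which binds signalling adaptors such as NCK, was at 40.5, 38.7, 39.4 and 37.7 TPM. Socs5 (ENSMUSG00000037104.8, chromosome 17, 87107679 to 87137583), described as a brake on interleukin-4 and epidermal growth factor receptor signals, was at 17.0, 18.5, 16.9 and 17.0 TPM, with replicate 2 the highest.

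Socs2 (ENSMUSG00000020027.18, chromosome 10, 95385362 to 95417180), the inhibitor best known from growth hormone signalling, had the lowest level of all 10 genes. It had 147, 116, 107 and 127 fragments over 9531 bases of exon, or 1.42, 1.66, 1.16 and 1.22 TPM. Exact Poisson 95% intervals, which cover counting error only, ran from 1.37 to 1.99 TPM in replicate 2, the highest, and from 0.951 TPM upward in replicate 3, the lowest, and overlap. Socs2 stood at percentile 8.97 of the tested genes, whereas Socs1 stood at 91.7, Cish at 90.3, Socs3 at 67.1, Socs7 at 62.4 and Socs5 at 44.0. The Cish level was 126 ± 20.3 times that of Socs2 with all counted exons and 66.2 ± 10.6 times with the longest coding transcript as the length.

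**Figure D1:**
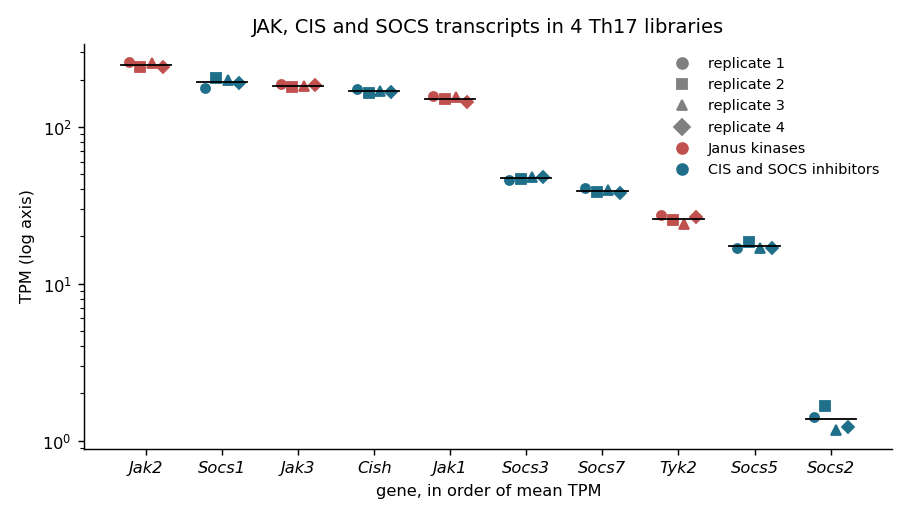
TPM of the 10 genes in each of the 4 libraries, on a log axis, in order of the mean, with 1 point per replicate, the line at the mean and color for kinases or inhibitors. Jak2, Socs1, Jak3, Cish and Jak1 lie between 144 and 258 TPM, Socs3, Socs7, Tyk2 and Socs5 between 16.9 and 48.2, and Socs2 between 1.16 and 1.66.

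Kinases and inhibitors were interleaved in the order of levels, and the genes fell into an upper set of 5, a middle set of 4, and Socs2. All 10 reached 1 TPM in each of the 4 libraries, 9 reached 10 TPM and 5 reached 100 TPM, where 91.5%, 65.3% and 16.4% of the tested genes reached the same levels. The median over the 4 kinases was 167 ± 3.74 TPM, that over the 6 inhibitors 43.1 ± 0.393 and that over all tested genes 22.9 ± 0.218. Summed over the inhibitors, TPM was 0.766 ± 0.0279 of that summed over the kinases, lowest in replicate 1 at 0.728 and highest in replicate 2 at 0.794. With the longest coding transcript as the length this ratio was 0.767 ± 0.0112. With the counted exons where those were shorter it was 0.917 ± 0.0221, so it depended on the length.

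Each gene was compared with the next in order within each library, as a difference of log2(TPM + 1), a scale that understates differences for the lowest genes. The order was set by the mean TPM of these same 4 libraries, so the directions and p-values are not independent support for it. Of the 9 neighbouring pairs, 8 had the same direction in 4 of 4 libraries and ranges of TPM that did not overlap. The pair that did not was Socs1 and Jak3, where Socs1 was lower in replicate 1 and higher in the other 3, with a mean difference of 0.07 ± 0.11 (exact two-sided sign-flip permutation p = 0.375, 0.375 after Benjamini-Hochberg adjustment over the 9 pairs). The smallest step among the other 8 was 0.12 ± 0.02, from Jak3 to Cish, followed by 0.16 ± 0.04 from Cish to Jak1 (exact permutation p = 0.125 and adjusted p = 0.141 for each). The widest were 2.96 ± 0.09 from Socs5 to Socs2 and 1.66 ± 0.08 from Jak1 to Socs3, with those p-values too. With 4 libraries no p can be under 0.125, so none of the 9 could pass 0.05. How often the ranges of gene pairs overlap over all tested genes was not examined.

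**Figure D2:**
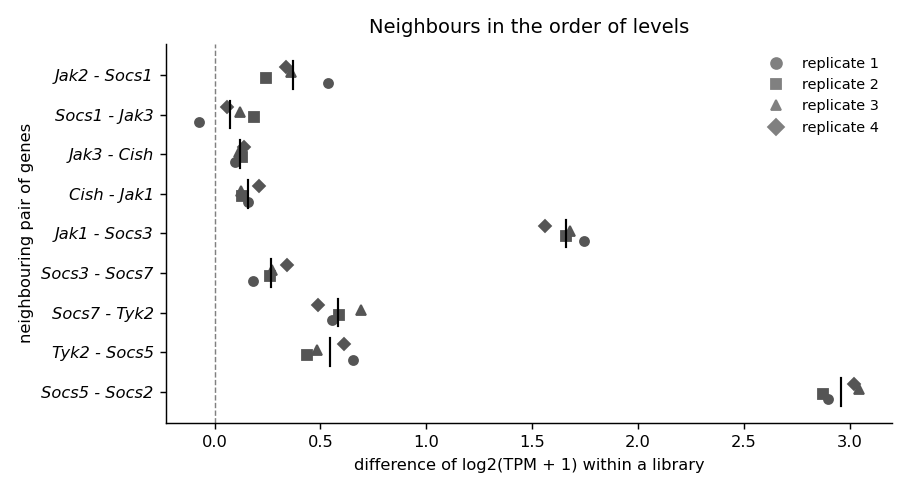
Difference of log2(TPM + 1) between each gene and the next in the order of mean TPM, 1 point per library and a line at the mean, with the dashed line at no difference. Only the pair Socs1 and Jak3 has points on both sides of 0; the differences from Jak1 to Socs3 and from Socs5 to Socs2 average 1.66 and 2.96.

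The order inside the upper set depended on the length by which counts were divided. Cish had 6419 counted bases, which include exons of noncoding transcripts, against 2850 bases in its longest coding transcript in GENCODE, and Socs2 had 9531 against 2222. With the longest coding transcript as the length, or the counted exons where those were shorter, Cish was highest at 270.3 ± 7.36 TPM, 1.60 times its value above, and Socs2 was at 4.17 ± 0.688 TPM, 3.05 times its value. Jak2 was then at 177 ± 5.96, Jak3 at 173.5 ± 2.94, Jak1 at 159 ± 5.996 and Socs1 at 137 ± 8.14 TPM. Under this length the ranges of Jak2 and Jak3 overlapped and their order differed in replicate 4 (mean difference 0.03 ± 0.04, exact permutation p = 0.25, adjusted p = 0.25). The upper 5 genes were the same under both lengths. The fifth gene exceeded the sixth, Socs3, by 3.21 times with all counted exons and by 3.61 times with this length. If the longest transcript was used for Socs1 as well, 2908 bases against 1220 counted, Socs1 was at 58.4 ± 3.47 TPM.

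**Figure D3:**
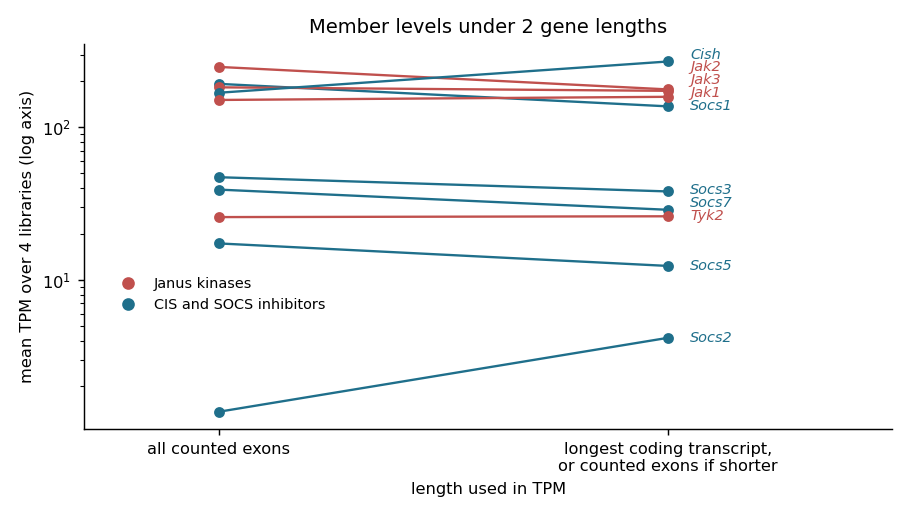
Mean TPM over the 4 libraries for each gene with all counted exons as the length (left) and with the longest coding transcript, or the counted exons if shorter (right), on a log axis. Cish moves from 169 to 270.3 TPM and to the top, Socs2 from 1.36 to 4.17, and the upper 5 genes stay above the other 5.

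The CV (coefficient of variation, SD over mean) of TPM ran from 1.70% to 16.5% over the 10 genes. In a test of spread between replicates beyond that of genes of like abundance (edgeR quasi-likelihood fit, Benjamini-Hochberg adjusted p under 0.05, one-sided), 0.304% of 11847 genes were called and 0 of the 10 members. No member had an unadjusted p under 0.05 in that fit, against 5.69% of all tested genes, and limma-trend put 1 of them there, Socs1, and called none. With a term for the Xist and Ddx3y split, edgeR again called 0 members and put 1, Socs1, at an unadjusted p under 0.05, with the smallest adjusted p at 0.706. Socs1 had the smallest p, with an adjusted value of 0.95 in the edgeR fit and a CV of 5.92%, where counting error alone would give 2.11%. Its lowest value, 178 TPM in replicate 1, has an exact Poisson interval of 171 to 185 TPM, apart from that of 195 to 214 TPM in replicate 2. This was not particular to Socs1, since the intervals of the highest and lowest libraries were also apart for Jak1, Jak2, Cish, Tyk2 and Socs7. Jak1 and Jak2 had CVs of 3.78% and 3.36%, where counting error alone would give 0.981% and 0.917%. Jak3 and Socs3 were the steadiest, with CVs of 1.70% and 2.09%. Socs2, with the fewest fragments, was the least steady at 16.5%, where counting error alone would give 9.02%. Tyk2 followed Socs1 at 5.66%, and Jak1, Jak2, Cish, Socs5 and Socs7 lay between 2.73% and 4.43%. A p above the threshold does not show that the replicates were equal.

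**Figure D4:**
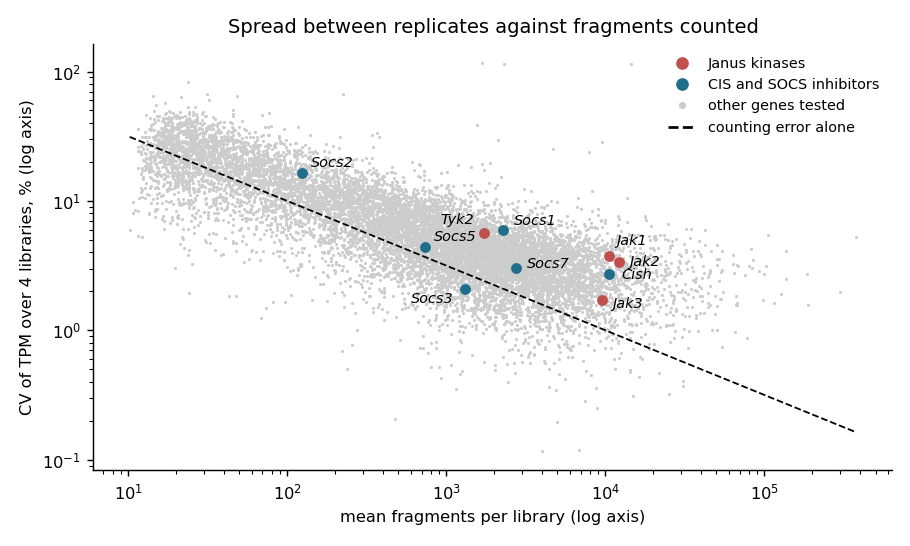
CV of TPM over the 4 libraries against mean fragments per library for the 11847 tested genes (grey) and the 10 members (colored), both on log axes, with the dashed line at counting error alone. The members lie within the cloud of other genes, from 1.70% for Jak3 to 16.5% for Socs2.

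Among the receptors that use these kinases, those for interleukin-2 were the most abundant. Of 8 common gamma chain receptor genes, 5 reached 100 TPM in each library, led by the interleukin-2 receptor chains Il2ra at 1189 ± 11.5 and Il2rb at 826 ± 44.7 TPM, while Il9r had 4 fragments in all, below the 0.0827 TPM that 3 fragments give in the shallowest library. The common gamma chain, Il2rg, stood at 1.59 ± 0.0138 times the level of Jak3, the kinase bound to it, with a range of 1.57 to 1.61 over the libraries. With the longest coding transcript as the length this ratio was 1.70 ± 0.0149. Il2rb, which binds JAK1, stood at 5.47 ± 0.362 times the level of Jak1, and at 3.71 ± 0.245 or 2.46 ± 0.163 times with the limited and the longest transcript length. Among 6 gp130 family receptors, Il6st, gp130 itself, was at 218 ± 5.67 and Il27ra at 161 ± 7.78 TPM, and Osmr had 1 fragment. All 3 receptor chains for interleukin-12 and interleukin-23 were detected, with the shared TYK2-binding chain Il12rb1 at 173 ± 5.10 TPM, 6.72 ± 0.336 times the level of Tyk2, Il12rb2 at 2.59 ± 0.340 and Il23r at 2.14 ± 0.154 TPM.

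The highest interferon and interleukin-10 receptor chains were lower than the highest gene of each receptor list above. As a list they were not lower throughout. Their median was close to that of the gp130 family receptors and above that of the interleukin-12 and interleukin-23 receptors. Of the 6 chains, 4 reached 10 TPM in each library and 0 reached 100 TPM. Ifngr2 was at 25.0 ± 1.24, Ifnar2 at 23.4 ± 1.59 and Il10ra at 0.366 ± 0.1696 TPM. Of 9 receptor genes that use JAK2 in other lineages, such as those for erythropoietin and growth hormone, 2 reached 1 TPM in each library and 5 had no fragment, among them Csf2rb, for which 3 fragments would give 0.0859 TPM. Those 2 were Csf2ra at 3.01 ± 0.866 and Il3ra at 2.59 ± 0.516 TPM.

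The STAT genes differed widely in level, with those of the interleukin-2, interleukin-6 and interleukin-4 signals highest. Stat5a was at 257 ± 5.64, Stat3 at 226 ± 6.62, Stat6 at 209.7 ± 2.04 and Stat5b at 196 ± 6.10 TPM, whereas Stat2 was at 7.34 ± 0.2495 and Stat4 at 4.28 ± 0.707 TPM. Stat2 transmits the type I interferon signal and Stat4 the interleukin-12 signal. The Stat5a level was 1.52 ± 0.0557 times that of Cish, the STAT5-induced inhibitor, and the Stat3 level 4.79 ± 0.231 times that of Socs3, which limits STAT3. With the longest coding transcript as the length these ratios were 1.24 ± 0.0454 and 6.67 ± 0.322.

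Genes for other regulators of the pathway, not all of them restraints, were present beside the SOCS genes. All 5 phosphatases that act on JAKs, STATs or receptors were above 100 TPM in every library, with Ptprc (CD45) at 305 ± 12.6, Ptpn6 (SHP-1) at 272 ± 10.04 and Ptpn11 (SHP-2) the lowest at 111 ± 2.16 TPM. None of the 4 PIAS genes, inhibitors of nuclear STATs, reached 100 TPM, with Pias2 at 76.3 ± 1.29, Pias4 at 30.7 ± 0.801 and Pias3 at 4.62 ± 0.222 TPM. The JAK-binding adaptor genes Sh2b1 and Sh2b3 were at 82.2 ± 3.40 and 49.8 ± 1.76 TPM and Sh2b2 at 1.70 ± 0.175. All 5 partners of the SOCS box in its ubiquitin ligase were above 10 TPM in every library, from elongin B, Elob, at 632 ± 18.8 and the RING protein gene Rnf7 at 166 ± 4.51 to the scaffold Cul5 at 48.1 ± 1.46 TPM.

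Of 13 genes known as STAT targets, 12 reached 10 TPM in each library, led by Myc at 972 ± 13.4 and Junb at 631 ± 35.1 TPM, with Fos lowest at 5.98 ± 1.11. Beside this and the list counts above, 65.3% of all tested genes reached 10 TPM and 16.4% reached 100 TPM in every library. Among 18 ligand genes, 5 reached 10 TPM and 5 had no fragment. Il2 at 1615 ± 114 and Lif at 759 ± 45.7 TPM were highest, and Ifnb1 had no fragment, where 3 would give 0.546 TPM. Over the 86 pathway genes other than the members, 65 were tested for spread and 0 called by edgeR, with 7 at an unadjusted p under 0.05, beside the shares of 0.304% and 5.69% for all tested genes.

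**Figure D5:**
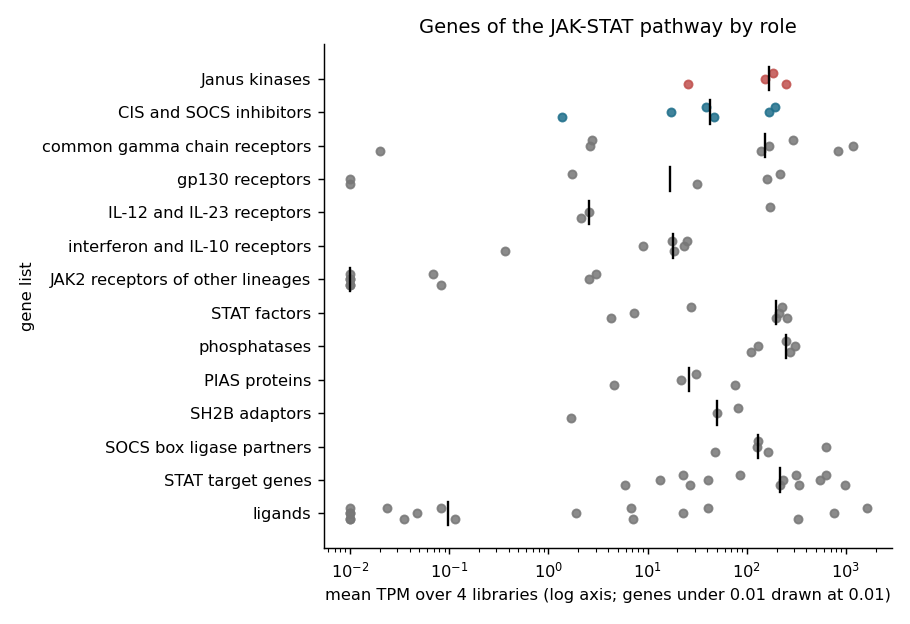
Mean TPM over the 4 libraries of each gene, 1 point per gene, in 14 lists by role in the pathway, on a log axis with values under 0.01 drawn at 0.01 and a line at each list's median. The kinases, STAT factors and phosphatases are among the lists with medians above 100 TPM, while 7 of the 9 receptors that use JAK2 in other lineages lie below 0.1 TPM.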

How the data were processed

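The values the authors deposited are unnormalised counts of fragments for each gene. Per the file headers, the authors counted paired-end fragments over exons with featureCounts 1.4.6-p4, requiring both ends aligned, with strand option 2 and GENCODE vM13. The build is mm10 per the labels; the aligner's settings are not stated. The deposited count files also give each gene's exon length, used for TPM. No row lacked a gene identifier, and 50376 of 50600 matched a symbol in GENCODE M21, which also gave the transcript lengths. The members and lists were chosen with earlier results of these data known. All 10 members are named, and of the other lists the STATs (1 is not reported here) or the 2 highest and the lowest gene, with genes that overlap a member, Xist, Ddx3y and the markers. Il2rg, as the receptor partner of Jak3, and the length limited to the counted exons were added after the values were seen.

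Spread between replicates used R 4.3.3 with edgeR 4.0.16 (intercept only, TMM, filterByExpr, robust prior): a gene's residual quasi-dispersion, divided by its trended prior, gave a one-sided F test, after testing the script on simulated data. TMM factors lay between 0.995 and 1.003. All 10 members passed the filter on low counts. Pairs used exact sign-flip tests, pseudocount 1. Of the members' 50-base words, 4.58% to 9.35% recurred in other genes' transcripts for Jak3, Tyk2, Cish and Socs2 and 0 for the other 6, and such fragments may be uncounted. Alternatives used DESeq2 1.42.0 size factors, limma 3.58.1, other filters, lengths and scalings, and each replicate left out. Intervals used scipy 1.17.1, tables pandas 2.3.3 and numpy 2.4.6, and plots matplotlib 3.10.9, under Python 3.11.15.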

Additional observations from a re-analysis of the deposited data

Results flagged for a closer look

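Among 45 genes named in the text and tested for spread, 2 had a single library farther from the other 3 than Dixon's 95% limit for 4 values, and chance alone would place about 1 gene in 20 there. Socs5 was at 18.5 TPM in replicate 2, against 16.9 to 17.0 in the other libraries. In replicate 2 its exact Poisson 95% interval ran from 17.0 to 20.0 TPM. That overlaps the intervals of the other libraries, whose upper ends lay at 18.1 to 18.2 TPM. Ptpn6 was at 256 TPM in replicate 2, against 277 in each of the others. Replicate 2 was the shallowest library, and the part of depth in these values was not tested.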

How the results depend on the processing

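No member was called for spread under any of the 10 alternatives run (6 other settings of the fit and each replicate left out). The smallest adjusted p over these was 0.644, for Socs1 without replicate 3. The count of all genes called was 36, and it was 94 with no filter on low counts, 17 without the robust prior, 21 with limma-trend, 20 with a term for the Xist and Ddx3y split (chosen after seeing the data), and between 15 and 37 with a replicate left out, 15 without replicate 4. Socs1 was the only member with an unadjusted p under 0.05 in any of them, with limma-trend, with the split term and without replicates 3 or 4. The counts of members at 1, 10 and 100 TPM stayed at 10, 9 and 5 under the alternatives run, except 4 at 100 TPM with the longest coding transcript as the length. Over all genes with a fragment, 54.0%, 37.4% and 9.39% reached those levels. The median TPM of the kinases and of the inhibitors was 171 and 44.2 without mitochondrial and ribosomal RNA genes, and that of the inhibitors was 33.9 with the longest coding transcript as the length and 33.4 with the counted exons where shorter, an alternative chosen after seeing the data. The first of these lengths exceeds the counted exons of Socs1 (2908 against 1220 bases), which puts Socs1 at 58.4 TPM.

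The order of neighbours depended on length. Socs1 minus Jak3 (log2) was -1.58 with the transcript length, -0.34 with the counted exons where shorter and -2.04 with no length term (CPM). Jak3 minus Cish was -0.64, -0.64 and -0.14 in the same order. With no length term, Cish minus Jak1 was -0.014 and Socs3 minus Socs7 -1.04, and 5 of 9 pairs kept the direction of the main order in every library. With a replicate left out, 8 or 9 pairs did, 9 without replicate 1, and a pseudocount of 0.1 left the count at 8. No paired analysis was possible because there was only 1 group. Depth limits Socs2 most, at 107 to 147 fragments.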
